A study of Homo sapiens with 6 samples.

Results

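A set of 9 genes of pericellular proteolysis was followed by name in Huh7-R cells treated with fostamatinib. They are 3 tissue inhibitors of metalloproteinases (TIMP1, TIMP2 and TIMP3), 3 membrane-anchored matrix metalloproteinases (MMP14, MMP15 and MMP24) and 3 membrane proteases of the ADAM family (ADAM9, ADAM10 and ADAM17). They were chosen by symbol, and all 9 were among the 16305 genes measured. The 9 genes and the related lists below were chosen with earlier results of these data known. Their shares of called genes are thus descriptions and not independent comparisons. Huh7-R cells, written Huh7SR in the sample labels, are a sorafenib-resistant pool raised by long exposure of Huh7, a line from a human liver carcinoma, to sorafenib. It is a pool and not a single clone, and per the study's methods sorafenib was left out of the medium for some days before experiments. The samples comprise 3 given fostamatinib, an oral tyrosine kinase inhibitor, and 3 given the solvent DMSO. The labels state 2 µM and 24 h for both groups. Whether the replicates were separate cultures is not stated, so the p-values may measure a technical spread.

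Matrix metalloproteinases (MMPs) and ADAMs are zinc-dependent proteases. MMPs cut collagens and other matrix proteins, while ADAMs act chiefly as sheddases, which cut growth factors, cytokine receptors and adhesion molecules off the cell surface. TIMPs bind the active site and block it, and TIMP3, which stays attached to the matrix, is the member of the family best known for blocking ADAM17. In liver, this balance between proteases and TIMPs is best known from fibrosis and from the invasion of hepatocellular carcinoma.

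RNA was selected by its poly(A) tail and sequenced, and the values are CPM, that is reads scaled to the size of each library, on a log2 scale where stated. Depth on the genes kept by the authors' filter was 13303451 to 15272737 reads per sample. All 8 hepatocyte markers examined (ALB, AFP, APOA1, APOB, TF, SERPINA1, TTR and FGB) were measured, with a summed level of 4895 to 5235 CPM in the DMSO samples and 6541 to 6950 CPM after fostamatinib. All 8 were called higher, but unequally, with log2 fold changes from 0.21 for APOB to 3.19 for APOA1. APOA1 had a mean of 21.67 reads with DMSO and 189.3 with fostamatinib. Of 7 fibroblast and stellate cell markers 5 were measured (COL1A1, COL1A2, COL3A1, PDGFRB and LUM), at 297 to 305 CPM and 308 to 311 CPM in sum. Of these, COL1A2 and PDGFRB rose, with log2 fold changes of 0.37 and 0.95 (limma, adjusted p = 3.15e-09 and 0.000141), and LUM fell, with -0.40 (limma, adjusted p = 2.08e-09). COL1A1 and COL3A1 were not called, but all their fostamatinib samples lay above all DMSO samples. Of 5 leukocyte markers 2 were measured (CD14 and LYZ), at 9.76 to 11.1 CPM and 9.60 to 11.7 CPM, and neither was called changed. Of 3 endothelial markers only PECAM1 was measured, at 6.10 to 6.93 CPM and 8.72 to 9.89 CPM. The other markers of these lists were not analysed here. In bulk RNA, fewer cells with a transcript and less transcript per cell cannot be told apart, and the part of these marker levels in the results below was not tested.

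After fostamatinib, ADAM17, MMP24, TIMP3 and ADAM9 fell and TIMP1 rose, while MMP14, MMP15, TIMP2 and ADAM10 did not pass the test. Thus 5 of the 9 genes were called, by limma with Benjamini-Hochberg adjustment over all genes at 0.05, against 47.8% of all genes. Of the 9975 genes averaging 100 reads or more in both groups, a depth that all 9 genes had, 60.5% were called. In direction, 4 of the 9 fell and 1 rose, against 24.5% and 23.3% of all genes. Of the genes averaging 100 reads or more in both groups 32.1% fell. In the same 4 genes every fostamatinib sample lay below every DMSO sample, against 27.4% of all genes, and in 0 of the 9 did every fostamatinib sample lie above, against 26.8%. The number called is thus near the background of this broad response. The median log2 fold change of the 9 genes was -0.009 and the median absolute change 0.16, against 0.002 and 0.27 over all genes. None of the 9 changed by more than 2-fold. The largest change was that of MMP24, which ranked 1502nd of 16305 genes by absolute log2 fold change, followed by ADAM17 at rank 3660 and TIMP3 at rank 4684.

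The sequences before the gene starts are shown for the 3 genes with the largest falls and for the gene that rose. Their part in the changes was not tested. Each is the 250 bases upstream of the RefSeq start on GRCh38.p14, at chr2:9555831-9556080 on the - strand for ADAM17, chr20:35226440-35226689 on the + strand for MMP24, chr22:32801455-32801704 on the + strand for TIMP3 and chrX:47582186-47582435 on the + strand for TIMP1. Capitals mark matches to 4 motifs searched on both strands, namely the AP-1 site TGANTCA, the ETS spelling CCGGAA, the GC box GGGCGG and the TATA box TATAAA.
ADAM17: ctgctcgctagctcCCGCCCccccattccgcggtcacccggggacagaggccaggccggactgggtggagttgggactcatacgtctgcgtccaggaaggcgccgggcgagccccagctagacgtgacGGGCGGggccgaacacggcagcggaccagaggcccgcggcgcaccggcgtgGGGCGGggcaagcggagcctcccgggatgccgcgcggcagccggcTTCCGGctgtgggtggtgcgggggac
MMP24: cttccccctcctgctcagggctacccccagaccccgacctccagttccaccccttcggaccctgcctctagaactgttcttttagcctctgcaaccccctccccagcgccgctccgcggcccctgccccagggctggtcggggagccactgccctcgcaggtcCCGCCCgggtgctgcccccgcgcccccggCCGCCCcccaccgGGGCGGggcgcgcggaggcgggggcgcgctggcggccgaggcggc
TIMP3: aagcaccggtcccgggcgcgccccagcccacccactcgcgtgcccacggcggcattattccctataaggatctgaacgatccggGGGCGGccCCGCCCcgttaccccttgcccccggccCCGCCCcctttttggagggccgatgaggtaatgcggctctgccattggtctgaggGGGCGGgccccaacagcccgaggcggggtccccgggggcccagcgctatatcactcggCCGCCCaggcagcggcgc
TIMP1: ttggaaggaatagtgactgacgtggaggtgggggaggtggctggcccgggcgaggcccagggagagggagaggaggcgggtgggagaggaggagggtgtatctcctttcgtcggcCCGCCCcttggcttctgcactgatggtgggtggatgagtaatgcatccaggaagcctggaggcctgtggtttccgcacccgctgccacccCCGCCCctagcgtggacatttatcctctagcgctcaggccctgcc

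The promoter table held 7 of the 9 genes, without TIMP2 and ADAM9. All 7 sequences had a GC box, which 42.3% of the 27305 promoters of the table have, with 1 in MMP14 and ADAM10, 2 in TIMP1, 3 in MMP24 and ADAM17 and 5 in TIMP3 and MMP15. The ETS spelling CCGGAA was matched 1 time, in ADAM17 at bases -26 to -21 from the start, on the opposite strand as TTCCGG. The shorter stretch GGAA was not searched. The spelling CCGGAA is found in 14.8% of all promoters. No AP-1 site or TATA box in these spellings was found in the 7 sequences, against 6.6% and 11.1% of all promoters. The search took exact spellings only. The stretch tgagtaa in TIMP1, which differs from the AP-1 spelling by 1 base, was therefore not marked. The GC content was 75.6% for ADAM17, 77.6% for MMP24, 72.4% for TIMP3 and 64.8% for TIMP1. For the genes not called it was 74.8% for MMP15, 68.4% for ADAM10 and 56.8% for MMP14, so the called and uncalled genes overlapped, and the median over all promoters was 58%. A match is a description of the letters and not of a bound site.

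Among the sheddases, ADAM17 fell the most, ADAM9 fell slightly and ADAM10 was not called. ADAM17 (ENSG00000151694), known as the enzyme that releases tumor necrosis factor and the EGF receptor ligands from the membrane, is located on chromosome 2, - strand, from 9628615 to 9696861 (GRCh37, as for all gene positions given here). Its level was 83.2, 80.5 and 80.4 CPM in the DMSO samples and 50.7, 57.8 and 56.0 CPM in the fostamatinib samples. The lowest DMSO sample was thus well above the highest fostamatinib sample, with a gap of 0.48 on the log2 scale. On the log2 scale ADAM17 fell by 0.57 (standard error, SE, 0.055; limma adjusted p = 7.83e-11), to a level 32.7% lower (95% confidence interval 27.2% to 37.7%). Mean reads were 1190 and 754.7, and when each sample was left out in turn the log2 fold change ranged from -0.61 to -0.52. IAH1, a gene on the opposite strand, shares 10.3% of the annotated exon bases of ADAM17, and it had means of 370 and 371 reads and was not called (adjusted p = 0.311, limma).

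ADAM9 (ENSG00000168615), a sheddase of several growth factors and receptors, lies on chromosome 8 from 38854273 to 38962964 on the + strand. It had the most reads of the 9 genes, with 642, 631 and 680 CPM with DMSO and 584, 575 and 590 CPM with fostamatinib. The groups did not overlap, but the gap between them was 0.097 on the log2 scale. On the log2 scale the change was -0.16 (SE 0.035, adjusted p = 0.000267 by limma), or 10.4% lower (95% confidence interval 5.9% to 14.8%). In the DMSO samples the reads of ADAM9 varied with 15.3 times the variance of counting error, against 1.31 times after fostamatinib. Without the mean-variance trend of the test the adjusted p of ADAM9 was 0.0499 (limma), just under the threshold. TM2D2, on the opposite strand, shares 0.401% of the exon bases of ADAM9.

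ADAM10 (ENSG00000137845), the constitutive sheddase of Notch receptors and cadherins, lies on chromosome 15 from 58881008 to 59041990 on the - strand. It had 182, 171 and 188 CPM in the DMSO samples and 176, 175 and 187 CPM after fostamatinib, and the samples of both groups were mixed in order. On the log2 scale the change was -0.0087 (SE 0.044, adjusted p = 0.887 by limma), with a 95% confidence interval from -0.097 to 0.080. In percent, its bounds are 6.52% lower and 5.69% higher.

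**Figure D1:**
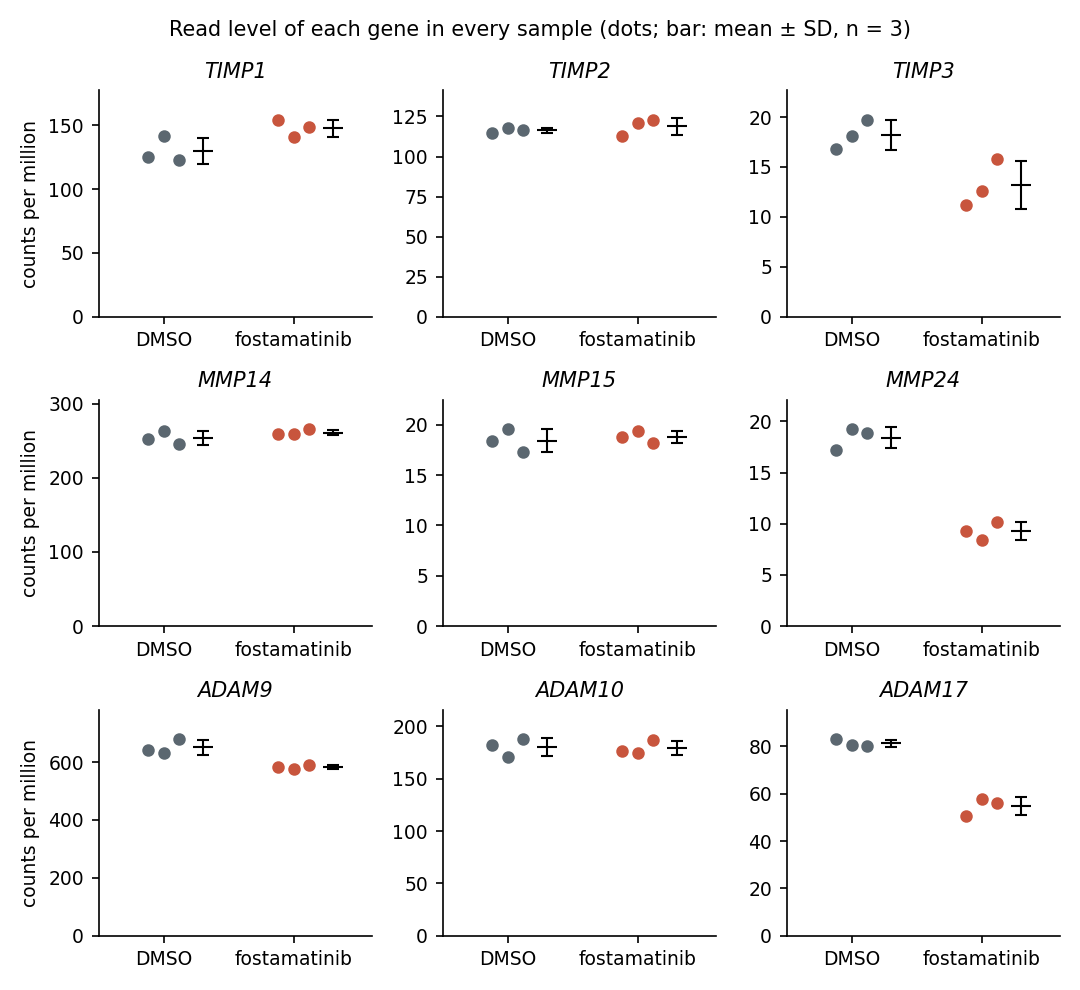
Level of each of the 9 genes in CPM (y axis, starting at 0) in the 3 DMSO and 3 fostamatinib samples; dots are samples and the bar beside them is the mean ± SD. The dots of MMP24, ADAM17, TIMP3 and ADAM9 are lower in all 3 fostamatinib samples than in all 3 DMSO samples, and those of the other 5 genes overlap.

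Of the 3 membrane MMPs in this set, MMP24 had the largest fall of the 9 genes, whereas MMP14 and MMP15 were not called. MMP24 (ENSG00000125966), also called MT5-MMP and best known from neurons, lies on chromosome 20 from 33814493 to 33864801 on the + strand. It had 17.2, 19.2 and 18.8 CPM in the DMSO samples and 9.30, 8.42 and 10.2 CPM after fostamatinib. The 3 fostamatinib samples lay together and 0.75 on the log2 scale below the lowest DMSO sample. On the log2 scale the change was -0.98 (SE 0.10, adjusted p = 3.11e-10 by limma), or 49.5% lower (95% confidence interval 41.8% to 56.2%). It rested on means of 270 and 127.7 reads, whose spread was 0.879 and 1.16 times the variance of counting error in the DMSO and fostamatinib samples.

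MMP24 shares 18.4% of its annotated exon bases with MMP24OS, a gene on the opposite strand, and MMP24OS rose, from a mean of 163.3 to 226.7 reads (log2 fold change 0.57, SE 0.10, adjusted p = 1.04e-05, limma). The library kit keeps the strand, but the strand setting of the counting is not given in the sources used here. The part of shared reads in either value was not tested. The 3 genes with the pattern most like that of MMP24, by the Euclidean distance over the 6 log2 values set to 0 at the DMSO mean, were HAS3, WDR4 and HK1, with distances of 0.105, 0.144 and 0.159 among 11719 genes compared.

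MMP14 (ENSG00000157227), or MT1-MMP, a collagenase of the cell surface that also activates pro-MMP2, lies on chromosome 14 from 23305769 to 23318250 on the + strand. It had 252, 263 and 245 CPM in the DMSO samples and 258, 259 and 265 CPM after fostamatinib. The samples overlapped, and the log2 fold change was 0.043 (SE 0.039, adjusted p = 0.388, limma; 95% confidence interval -0.036 to 0.12). MMP15 (ENSG00000102996), or MT2-MMP, on chromosome 16 from 58059658 to 58080805 on the + strand, had 18.4, 19.5 and 17.3 CPM in the DMSO samples and 18.8, 19.4 and 18.2 CPM after fostamatinib. These overlapped too, and the difference was 0.030 on the log2 scale (SE 0.084, limma adjusted p = 0.792). Its 95% confidence interval, from -0.14 to 0.20, was wider than that of MMP14, and its mean in DMSO was 269.7 reads against 3711 for MMP14.

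The TIMPs moved in different directions, with TIMP3 lower, TIMP1 higher and TIMP2 not called. TIMP3 (ENSG00000100234), on chromosome 22 from 33197691 to 33259028 on the + strand, lies inside SYN3, a gene of the opposite strand with which it shares no annotated exon base. Its level was 16.8, 18.1 and 19.7 CPM in the DMSO samples and 11.2, 12.6 and 15.9 CPM after fostamatinib. The groups did not overlap, but fostamatinib replicate 3 came close to the lowest DMSO sample, with a gap of 0.081 on the log2 scale. On the log2 scale the change was -0.47 (SE 0.10, adjusted p = 0.000296 by limma), or 27.8% lower (95% confidence interval 16.4% to 37.7%). Left out in turn, the samples gave log2 fold changes from -0.61 to -0.36. The call of TIMP3 needed the mean-variance trend of the test, since without it the adjusted p was 0.0525 (limma).

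TIMP1 (ENSG00000102265), a secreted inhibitor of many MMPs and of ADAM10, lies on chromosome X from 47441807 to 47446188 on the + strand, inside SYN1 of the opposite strand and with no shared exon base. It had 125, 142 and 123 CPM in the DMSO samples and 154, 141 and 149 CPM after fostamatinib. DMSO replicate 2 lay just above fostamatinib replicate 2, so the groups overlapped. On the log2 scale the change was 0.19 (SE 0.049, adjusted p = 0.00178 by limma), or 13.9% higher (95% confidence interval 6.28% to 22.2%). The DMSO reads of TIMP1 varied with 11.8 times the variance of counting error. Without the trend the adjusted p was 0.103 (limma), and the rise was no longer called. TIMP2 (ENSG00000035862), which blocks MMPs and also serves with MMP14 in the activation of pro-MMP2, lies on chromosome 17 from 76849059 to 76921469 on the - strand. It had 115, 118 and 116 CPM in the DMSO samples and 113, 121 and 123 CPM after fostamatinib, and these overlapped. The difference on the log2 scale was 0.028 with a 95% confidence interval from -0.065 to 0.12 (SE 0.046, limma adjusted p = 0.645).

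**Figure D2:**
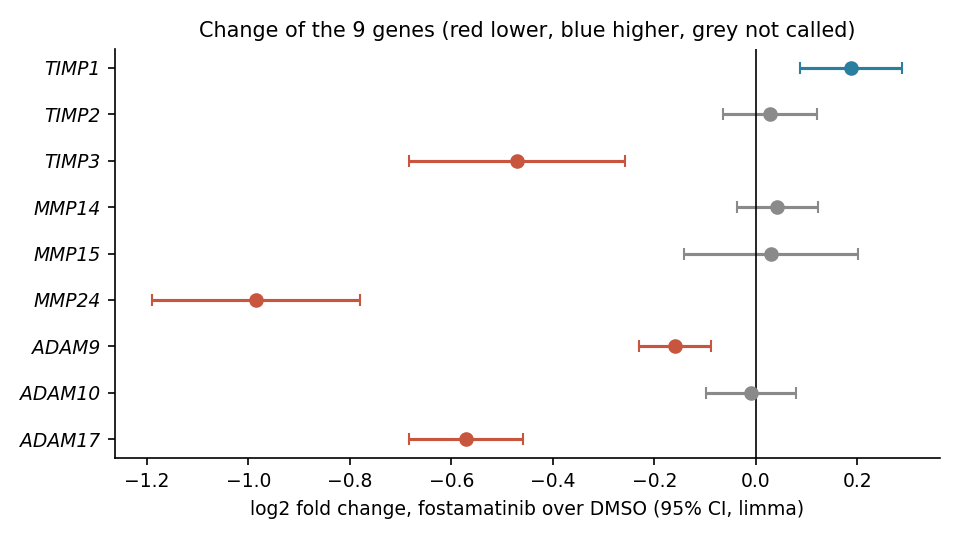
Log2 fold change of each of the 9 genes, fostamatinib over DMSO (x axis), with the 95% confidence interval from limma; red marks genes called lower, blue called higher and grey not called at an adjusted p of 0.05. MMP24 (-0.98), ADAM17 (-0.57), TIMP3 (-0.47) and ADAM9 (-0.16) lie left of 0 with their intervals, and TIMP1 (0.19) lies right of it.

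Levels of different genes were compared per kilobase of the Ensembl canonical transcript, as CPM per kb. In the DMSO samples the order was TIMP1 with 169 ± 13.2 (SD, n = 3), ADAM9 with 158 ± 6.28, MMP14 with 68.5 ± 2.46, TIMP2 with 31.9 ± 0.458, ADAM17 with 18.5 ± 0.354, ADAM10 with 16.2 ± 0.770, MMP15 with 4.53 ± 0.275, MMP24 with 4.21 ± 0.244 and TIMP3 with 3.96 ± 0.322 CPM per kb. Neighbours whose means lay within their spread were TIMP1 and ADAM9, and the 3 genes at the low end. After fostamatinib ADAM17, at 12.5 ± 0.836 CPM per kb, lay below ADAM10 at 16.1 ± 0.598, and MMP24 at 2.13 ± 0.202 was the lowest of the 9. These orders depend on the length used. Per kilobase of all annotated exon bases, ADAM9 had 36.8, MMP14 54.8, ADAM10 11.3 and ADAM17 5.10 CPM per kb in DMSO, so that ADAM9 stood below MMP14 and ADAM17 below ADAM10 also without the drug. Length does not enter the comparison of a gene with itself between the groups.

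By role, the 3 TIMPs summed to 205 ± 13.5 CPM per kb in DMSO and 228 ± 7.89 after fostamatinib (SD, n = 3), and the samples overlapped. TIMP1 made up 82.4% ± 0.996 and 84.4% ± 1.14 of this sum and TIMP3 1.94% ± 0.216 and 1.26% ± 0.229. The 3 membrane MMPs summed to 77.2 and 77.3 CPM per kb (SD 2.81 and 1.002), with MMP14 at 88.7% ± 0.214 and 91.3% ± 0.0644 of the sum and MMP24 at 5.45% ± 0.307 and 2.75% ± 0.233. The 3 sheddases summed to 193 ± 6.87 CPM per kb in DMSO and 170.3 ± 2.31 after fostamatinib, and here the groups did not overlap. ADAM9 made up 82.0% ± 0.451 and 83.2% ± 0.529 of that sum, at 158 CPM per kb in DMSO and 142 after fostamatinib, so most of the difference in the sum was that of ADAM9. ADAM17 was 9.61% ± 0.416 of it in DMSO and 7.34% ± 0.491 after fostamatinib. The abundant members MMP14, TIMP1 and ADAM9 thus carried most of the 3 sums. TIMP3, which fell, was the scarcest TIMP. MMP24, which also fell, was about as scarce in DMSO as MMP15, which was not called and made up 5.87% ± 0.158 of its sum.

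Within-sample ratios do not depend on the scaling between libraries, and 7 pairs of a protease and a TIMP, or of like genes, were compared as log2 ratios of reads. A ratio of reads does not show how far the TIMP of a pair inhibits its protease. ADAM17 over ADAM10 was -1.13, -1.09 and -1.22 with DMSO and -1.80, -1.59 and -1.74 with fostamatinib, a difference of -0.56 ± 0.072 (standard error, n = 3 per group). MMP14 over TIMP3 was 3.91, 3.86 and 3.64 against 4.52, 4.36 and 4.06, a difference of 0.51 ± 0.16. MMP14 over TIMP1 differed by -0.15 ± 0.054. In these 3 pairs the groups did not overlap (two-sided exact permutation test, p = 0.10 for each, the smallest that 3 against 3 allow, and 0.233 adjusted over the 7 pairs). ADAM17 over TIMP3, the sheddase and its inhibitor, had overlapping groups, with 2.31, 2.15 and 2.03 in DMSO and 2.18, 2.19 and 1.82 after fostamatinib (exact permutation p = 0.70). The groups also overlapped for MMP14 over TIMP2 with a difference of 0.015 ± 0.038, for ADAM10 over TIMP1 with -0.20 ± 0.11 and for TIMP1 over TIMP2 with 0.16 ± 0.088 (exact permutation p = 0.70, 0.30 and 0.20).

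**Figure D3:**
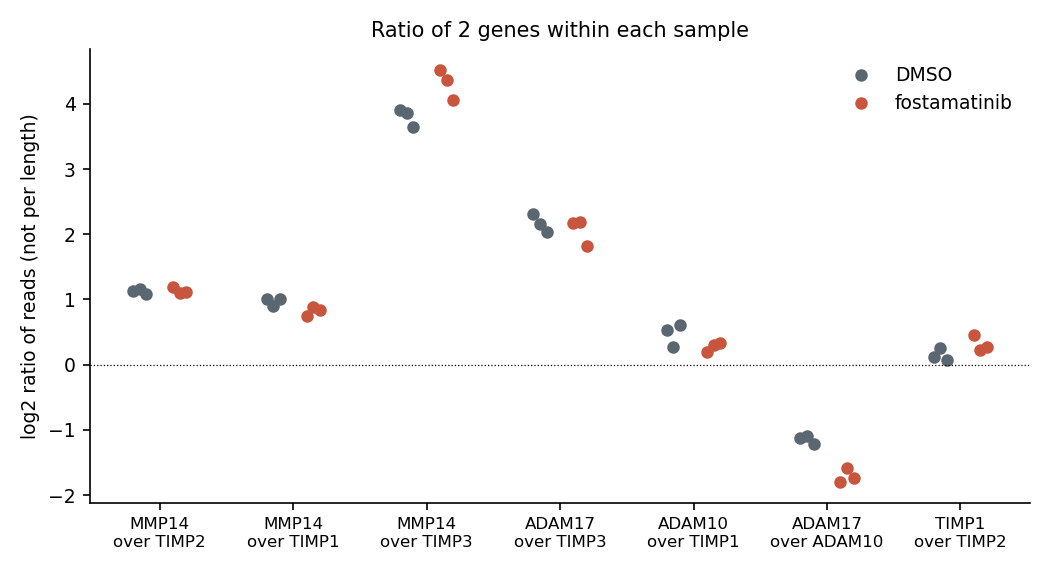
Log2 ratio of the reads of a pair of genes within each sample (y axis, not corrected for length) for the 7 pairs (x axis); grey dots are DMSO and red dots fostamatinib samples. ADAM17 over ADAM10 and MMP14 over TIMP1 are lower and MMP14 over TIMP3 is higher in all 3 fostamatinib samples, and the other 4 pairs overlap.

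The genes that mature the proteases and carry them to the cell surface were all measured, and 6 of 13 fell and 2 rose (limma), or 61.5% called, against 47.8% of all genes and 60.5% of those averaging 100 reads or more in both groups. RHBDF2, which encodes the iRhom2 protein that escorts ADAM17, fell from 761, 834 and 726 reads to 482, 539 and 492 (log2 fold change -0.53, SE 0.063, adjusted p = 8.93e-09, limma). Its relative RHBDF1, named after its value was seen, was not called (0.077, adjusted p = 0.373, limma). TSPAN5, TSPAN14 and TSPAN15, tetraspanins that escort ADAM10, fell by 0.56, 0.62 and 0.50 on the log2 scale. The other tetraspanins of the list, named after their values were seen, differed. TSPAN17 fell by 0.21 (adjusted p = 0.00301, limma), TSPAN33 was not called (-0.16, adjusted p = 0.255, limma) and TSPAN10 rose, as given below. ADAM10 itself was not called, as given above. PCSK6, a proprotein convertase, fell by 0.65 in log2 units (SE 0.056, adjusted p = 4.26e-12 by limma). FURIN, the convertase best known for removing the propeptides of membrane MMPs and ADAMs, rose by 0.32 in log2 units (SE 0.037, adjusted p = 4.84e-09 by limma), and so did TSPAN10, from 19, 13 and 12 to 34, 24 and 33 reads, both named after their values were seen. The median log2 fold change of the 13 genes was -0.158.

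Of 25 listed substrates of ADAM10 and ADAM17, 20 were measured, and 10 fell and 5 rose, with a median log2 fold change of -0.144. This is 75% called, against 47.8% of all genes and 60.5% of those averaging 100 reads or more in both groups. The share called lower was 50%, against 24.5% of all genes and 32.1% of those averaging 100 reads or more. ICAM1 and CD44, both adhesion molecules, had the largest falls of the list, with log2 fold changes of -1.27 and -1.20. EREG, a ligand of the EGF receptor, fell from 71, 91 and 98 reads to 44, 53 and 43 (-0.79, SE 0.16, adjusted p = 0.000123, limma). AREG and HBEGF, named after their values were seen, are further ligands of this receptor released by ADAM17, and they fell by 0.63 and 0.65. BTC, another ligand of this receptor also named after its value was seen, was not called (-0.45, adjusted p = 0.132, limma). It had means of 38 reads with DMSO and 27 with fostamatinib. The receptor IL6R and the ligand EGF went the other way and rose by 0.91 (SE 0.061, adjusted p = 5.22e-15, limma) and 0.83 (SE 0.085, adjusted p = 3.22e-10, limma). The other 3 substrates that rose, CDH1, SDC1 and MERTK, are named after their values were seen. So are the remaining substrates among the 10 that fell. SDC4, JAG1, TNFRSF1A, NOTCH2 and MET fell by 0.69, 0.65, 0.53, 0.16 and 0.13. The transcripts of sheddase substrates thus did not share a direction, and shedding itself was not measured.

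Other proteases of the superfamily were measured for 7 of 20 further MMPs, 7 of 17 further ADAMs and 9 of 19 ADAMTS genes, the last being secreted proteases of the matrix. The share called was 42.9% of these MMPs, 57.1% of the ADAMs and 66.7% of the ADAMTS genes, against 47.8% of all genes. Among the MMPs 1 fell and 2 rose. MMP7, or matrilysin, fell from 196, 188 and 175 reads to 78, 74 and 76 (log2 fold change -1.20, SE 0.12, adjusted p = 2.53e-10, limma). MMP11 and MMP17 rose, MMP11 from 25, 44 and 40 to 69, 73 and 66 reads (1.05, SE 0.19, adjusted p = 1.99e-05, limma) and MMP17 by 0.74. MMP17 is, like MMP24, a membrane-anchored MMP. So is MMP16, named after its value was seen, which was not called (0.44, adjusted p = 0.0584, limma). All fostamatinib samples of MMP16 lay above all DMSO samples. Both genes stand outside the sum of membrane MMPs given above. MMP23B, named after its value was seen, also stands outside that sum and was not called (-0.077, adjusted p = 0.716, limma). MMP2, the gelatinase that MMP14 activates, was not analysed here, nor were MMP1 and MMP9. Among the ADAMs 3 fell and 1 rose, and ADAM28, ADAM23 and ADAM15 fell by 0.75, 0.56 and 0.22 on the log2 scale. ADAM32, named after its value was seen, rose from 5, 6 and 6 to 15, 21 and 16 reads. Among the ADAMTS genes 4 fell and 2 rose. ADAMTS9, ADAMTS12 and ADAMTS1 fell by 1.05, 0.84 and 0.63, with means in DMSO of 506.3, 1398.7 and 915.7 reads, and ADAMTS15 and ADAMTS6 rose by 0.79 and 0.73. ADAMTS5, named after its value was seen, fell from 21, 21 and 22 to 5, 6 and 4 reads.

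Of 9 further genes for inhibition and clearance 7 were measured, and 5 rose and 1 fell, or 85.7% called, against 47.8% of all genes, of which 23.3% rose and 24.5% fell. Of the genes averaging 100 reads or more in both groups 60.5% were called. The list also holds BSG, which is known as an inducer of MMPs and not as an inhibitor, and BSG is 1 of the 5 that rose. LRP1, a receptor, and SPOCK2, a proteoglycan, are in the list too. Its counts are thus not those of metalloproteinase inhibitors alone. A2M, the plasma inhibitor that traps proteases of all classes, rose from 1369, 1545 and 1435 reads to 3530, 3900 and 3765 (log2 fold change 1.45, SE 0.044, adjusted p = 1.32e-24, limma). LRP1, the endocytic receptor that clears complexes of A2M and of TIMP3, rose by 0.75 (SE 0.038, adjusted p = 4.60e-18, limma). SPOCK2, a matrix proteoglycan, rose from 9, 8 and 14 reads to 54, 55 and 54, TFPI2 rose by 0.50 and BSG by 0.26. TIMP4, the remaining TIMP, named after its value was seen, fell from 49, 45 and 37 reads to 34, 26 and 21 (-0.61, SE 0.23, adjusted p = 0.0256, limma). RECK, a membrane-anchored inhibitor of MMPs also named after its value was seen, was not called (0.015, adjusted p = 0.915, limma). A2M is also a product of hepatocytes, and the 8 hepatocyte markers above all rose, with a median log2 fold change of 0.52, whose part in the rise of A2M was not tested.

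**Figure D4:**
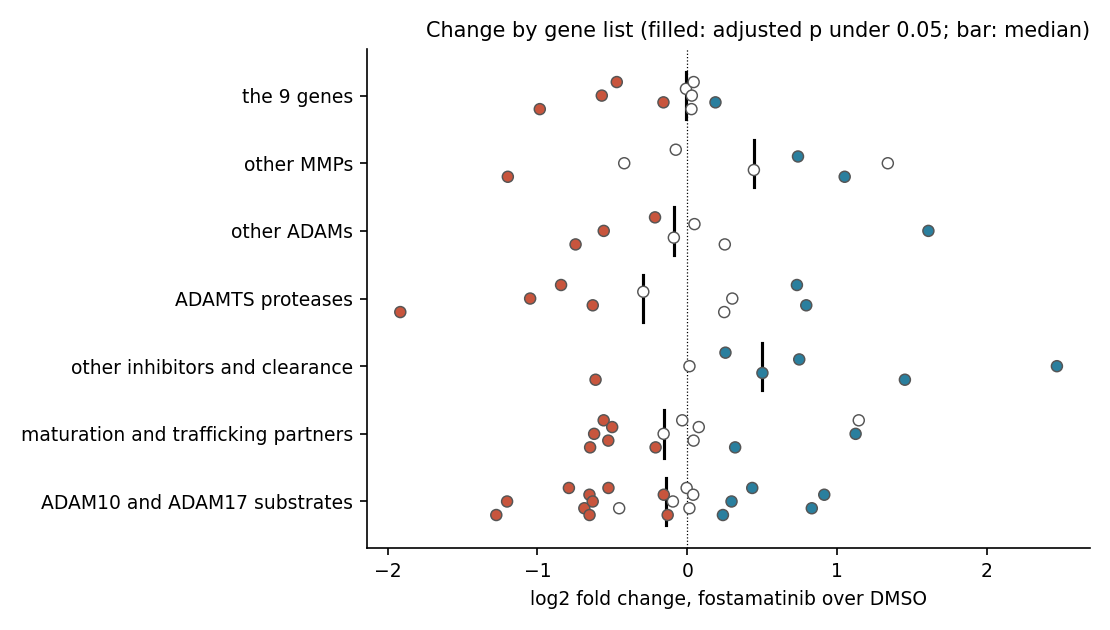
Log2 fold change, fostamatinib over DMSO (x axis), of every measured gene of the 9 genes and of 6 related lists (y axis); filled dots passed an adjusted p of 0.05 in limma (red lower, blue higher), open dots did not, and the bar is the median of the list. The medians lie between -0.294 for the ADAMTS genes and 0.502 for the list of inhibition and clearance, which includes the MMP inducer BSG.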

How the data were processed

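Values of 3 fostamatinib and 3 DMSO samples of Huh7-R cells were used. The authors aligned to hg19 (HISAT), used featureCounts with GENCODE v.22 for counting, dropped genes that had fewer than 5 reads in 2 or more of the 3 samples in each group, and applied TMM. The deposited values are log2 CPM, with 0.5 added to each count. Reads were recovered from them, with 100% of values within 0.05 of a whole number.

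Differences were tested in limma 3.58.1 (R 4.3.3), moderated with an intensity trend, on 16305 genes, with Benjamini-Hochberg adjustment over all of them at 0.05. Because 0.5 is added to each count, changes of genes with few reads are understated. The script was tested on simulated data. Ratios of genes were compared by two-sided exact permutation tests in scipy 1.17.1. Of the 9 genes, the list genes and the markers tested, 87 of 88 were found in the GENCODE version 44 annotation mapped to GRCh37, the same build as hg19, which gave coordinates and lengths. Upstream sequences are from RefSeq on GRCh38.p14.

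Named genes were the 9 genes, the genes of related lists with the largest called changes (up to 5 per list, averaging 50 or more reads in the higher group), the markers, genes overlapping the 9, and the 3 genes most like the gene with the largest change. The 9 genes and the lists were chosen with earlier results of these data known. The alternatives tried were limma-voom on recovered reads, no trend, other scalings (RLE and library size alone), stricter read filters, a threshold of 1 expected false positive, the replicate number as a block and the omission of each sample. Levels per kilobase were also set on all annotated exon bases, an alternative chosen after seeing the data.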

Additional observations from a re-analysis of the deposited data

How the results depend on the processing

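All 5 calls among the 9 genes were made by limma-voom, with both other scalings, with both stricter filters, with the replicate number as a block (7977 of all genes called, against 7794) and when any of the 6 samples was omitted (6958 to 7480 of all genes). Without a mean-variance trend 3 of the 9 (ADAM17, ADAM9 and MMP24) and 6382 of all genes were called, and with a threshold of 1 expected false positive 2 (ADAM17 and MMP24), where 4136 of all genes passed. The deviations of samples sharing a replicate number correlated at 0.0365, -0.0213 and 0.0371 (DMSO against fostamatinib, after subtracting each group's mean), so the numbers were not taken as pairs. Of 126 values of the 9 genes under 14 alternatives, 117 kept direction and side of the threshold. The sign of 2 uncalled genes turned on omission of a sample: MMP15 (-0.014 without DMSO replicate 3, range -0.014 to 0.073) and ADAM10 (0.021 without DMSO replicate 3, 0.0031 without fostamatinib replicate 1 and 0.010 without fostamatinib replicate 2, range -0.047 to 0.021). The median log2 fold change of all genes was 0.0015, against 0.00515 with RLE and -0.00955 with library size alone. TIMP1 and TIMP3 depended on the trend, and ADAM9 passed without it only narrowly (adjusted p = 0.0499, limma). The cause was not tested.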
